A study of Homo sapiens with 2 samples.

Results

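The genes described here are the histone genes of SF-539 cells, a human GBM (glioblastoma) cell line. They were chosen by name, as every protein-coding row of the deposited expression table that begins with HIST1H, HIST2H, HIST3H or HIST4H (71 genes, called clustered below) or with H1F, H2AF, H2BF or H3F (20 genes, called variant genes below). Together they are 91 of 58735 genes in the table, or of 19951 protein-coding genes. The cells were labelled as epithelial glioma cells of the brain at passages 15-18, grown in DMEM with FBS. A lentiviral pGIPZ vector had brought in either a control shRNA, in the cells called shControl, or shRNA directed at FKBP9, in those called shFKBP9, and puromycin had been used to select stable clones. RNA-Seq was available from 1 library per condition, with no replicates, so a difference between them is one between 2 libraries, without a replicate check and without any test.

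Histones are the proteins around which DNA is wound. The core histones H2A, H2B, H3 and H4 form the nucleosome, and the linker histone H1 binds where DNA enters and leaves it. Most core and linker histone protein is made from the clustered genes while DNA is being copied in S phase. Their mRNAs have no introns in the coding part, and instead of a poly(A) tail they usually end just after a stem-loop that the protein SLBP binds. The variant genes mostly lie apart from the clusters, are mostly read throughout the cell cycle, as a rule give polyadenylated mRNAs and supply histones with particular duties, such as H2A.Z and H3.3. Some clustered genes are also known to give polyadenylated mRNAs, mainly in cells that have stopped dividing.

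The authors deposited FPKM, in which the fragments of a gene are divided by its length in kilobases and by the size of the library. Every value was a whole multiple of what 1 fragment is worth, so fragments could be recovered: 18116873 on genes in shControl and 17158514 in shFKBP9. FKBP9, the targeted gene, whose product is a peptidyl-prolyl isomerase of the endoplasmic reticulum, had 49.8 FPKM in shControl and 4.68 in shFKBP9, a log2 ratio of -3.38 (-3.56 to -3.27). Mesenchymal markers were abundant (COL1A1 held 148817 and 148937 fragments), and the 4 of that list summed to 279190 and 275899. The 7 glial markers summed to 653 and 483, with SOX9 lower in shFKBP9 (321 and 198), NES at 237 and 207, GFAP at 43 and 29 and AQP4 at 0. The 4 epithelial markers summed to 179 and 149, with KRT8 at 159 and 129, EPCAM at 11 and 14 and CDH1 at 0 and 1. Of the blood markers CD14 had 13 and 24, and PTPRC and CD3E were at 0. The keratinocyte markers KRT5, KRT14 and KRT17 summed to 9 fragments in shControl and 55 in shFKBP9, and the part of these marker differences in the results below was not tested. For a single gene the log2 ratio sets FPKM in shFKBP9 over FPKM in shControl after an addition of 0.1 on either side. For a sum over genes, or over a class of RNA, it sets the summed fragments of shFKBP9 over those of shControl, scaled for depth and with nothing added, so that genes with many fragments weigh most. In parentheses stand the limits, at 95%, that the fragments themselves allow by the exact Clopper-Pearson method, without that addition and for counting error only. In bulk RNA, fewer cells that read a gene and less RNA per cell cannot be told apart.

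The stem-loop can be read from the genome. In hg38, the build of the deposited coordinates, the 200 bases after each stop codon of the canonical GENCODE 44 transcript were searched for a stem-loop with the arms GGCNCT and AGNGCC held apart by 4 bases. It was found in 70 of 71 clustered genes, beginning between 22 and 67 bases after the stop codon, and in 1 of 19 variant genes that could be matched. Among 12408 other protein-coding genes on the same chromosomes, 6 held it (0.0484%). The clustered gene without it was HIST1H2AK, which had no fragment, and the variant gene with it was H2AFX. The sites of the genes on which the results turn are shown with the 16 bases of the stem-loop in capitals and 5 bases on either side.
HIST1H1C, chr6:26055739-26055764, minus strand: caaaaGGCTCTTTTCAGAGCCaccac
HIST1H2BK, chr6:27146361-27146386, minus strand: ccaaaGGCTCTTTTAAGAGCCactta
HIST1H2AC, chr6:26124664-26124689, plus strand: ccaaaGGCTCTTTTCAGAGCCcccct
HIST2H2BE, chr1:149886183-149886208, minus strand: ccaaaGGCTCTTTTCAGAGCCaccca
HIST1H3C, chr6:26045844-26045869, plus strand: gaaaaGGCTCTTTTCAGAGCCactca
HIST1H4I, chr6:27139649-27139674, plus strand: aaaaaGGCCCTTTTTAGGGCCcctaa
HIST1H4D, chr6:26188710-26188735, minus strand: ccaacGGCCCTTTTCAGGGCCaccta
H2AFX, chr11:119094893-119094918, minus strand: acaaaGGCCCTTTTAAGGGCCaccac
The same 16 bases, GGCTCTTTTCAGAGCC, stood in 41 clustered genes of the families H1, H2A, H2B and H3. Summed over those genes, fragments went from 1134 in shControl to 1607 in shFKBP9, a log2 ratio of 0.58 (0.47 to 0.69), and without HIST1H1C from 760 to 871 (0.27, 0.13 to 0.42). In the 10 genes with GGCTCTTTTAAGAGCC they went from 383 to 574, a log2 ratio of 0.66 (0.47 to 0.85), and without HIST1H2BK from 163 to 211 (0.45, 0.15 to 0.75). The 15 H4 genes carried other arms, and fragments on the 10 with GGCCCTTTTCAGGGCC went from 122 to 100 (log2 ratio -0.21, -0.61 to 0.18), and without HIST4H4 from 70 to 41 (-0.69, -1.29 to -0.12). The 4 with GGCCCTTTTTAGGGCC, HIST1H4I among them, had 89 and 144, and HIST1H4I held 85 and 142 of these.

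The clustered genes were far less abundant than the variant genes in both libraries. Summed over the 71 clustered genes there were 1874 fragments in shControl and 2575 in shFKBP9, which is 0.0103% and 0.0150% of all fragments on genes. The 20 variant genes held 37334 and 35800. In FPKM, a level per length of each gene as modelled in the table, the clustered genes summed to 133 and 203, and the variant genes to 625 and 627. The clustered sum was higher in shFKBP9, by 1.45-fold in fragments scaled for depth (log2 ratio 0.54, 0.45 to 0.62) and by 1.52-fold in summed FPKM. The log2 ratio of the variant sum was 0.02 (-0.00 to 0.04) in fragments and 0.00 in FPKM.

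At least 1 fragment was found on 56 clustered and 12 variant genes, and the 23 others, 15 clustered and 8 variant, had none in either library. A level of 1 FPKM in either library was reached by 26 clustered and 9 variant genes. Among these the median log2 ratio was 0.27 for the clustered genes and -0.04 for the variant genes, beside -0.02 for the 10346 protein-coding genes of that level. Over all members with a fragment the medians were 0.05 and 0.00, beside -0.01. The gain in the clustered sum is weighted to genes with many fragments. Many clustered genes hold too few fragments for these medians to tell whether the typical clustered gene gained. Without HIST1H1C and HIST1H2BK, the 12 clustered genes with at least 50 fragments went from 975 to 1204 (log2 ratio 0.38, 0.26 to 0.50).

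A change of more than 2-fold, with at least 1 FPKM in either library, was seen for 9 of 35 histone genes, all of them clustered. In shFKBP9, 4 were higher (HIST1H1C, HIST1H3C, HIST1H2AI and HIST1H2AL), where 0.213% of protein-coding genes were that much higher. The 5 lower genes were HIST1H3B, HIST1H4D, HIST1H4C, HIST1H2BI and HIST1H4A, where 0.193% of protein-coding genes were that much lower. HIST1H4A had 6 fragments in shControl and none in shFKBP9, and against a floor of 3 fragments it was at least 1.90-fold lower, short of 2-fold. Of the 9, all but HIST1H1C reached 1 FPKM only in the library where they were higher, so the minimum helped to make these calls. With 1 FPKM required in both libraries, 1 histone gene was higher and 0 were lower. Of the 9, all but HIST1H1C also had under 50 fragments in both libraries together. A high FPKM from so few fragments is possible because these genes are short, and only 40 protein-coding genes, 13 of them histone genes, combined 1 FPKM with under 50 fragments. Of the 40, 15% were more than 2-fold higher and 20% more than 2-fold lower, and of the 27 that are not histone genes 11.1% were higher and 11.1% lower. The 13 histone genes, with 3 higher and 5 lower, have to be read against these shares, which are far nearer to theirs than those of all protein-coding genes.

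The counting interval gave a second view, for members with at least 10 fragments together. It lay above 0 for 9 of 39 clustered genes and below 0 for 2, and above 0 for 2 of 9 variant genes and below 0 for 1. Among all protein-coding genes with at least 10 fragments it lay above 0 for 16.7% and below 0 for 20.3%. Most of those were deeper than most clustered genes, as 10045 of the 13040 had 200 or more fragments. The 9 variant genes but for H2AFJ had 1200 or more, where the shares were 24.4% and 30.7%. Among the deeper clustered genes the shares were otherwise. Of 14 with at least 50 fragments, 7 had an interval above 0 and none below, beside 12.2% above and 13.7% below among the 5636 protein-coding genes with 50 fragments up to the number of the deepest clustered gene. A log2 ratio above 0 was found for 12 of these 14, and for 48.2% of the 5636. Their sum went from 1569 to 2303 fragments (log2 ratio 0.63, 0.54 to 0.72), whereas the 57 clustered genes under 50 fragments summed to 305 and 272 (log2 ratio -0.09, -0.33 to 0.15). This split at 50 fragments was chosen after the values were seen.

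**Figure D1:**
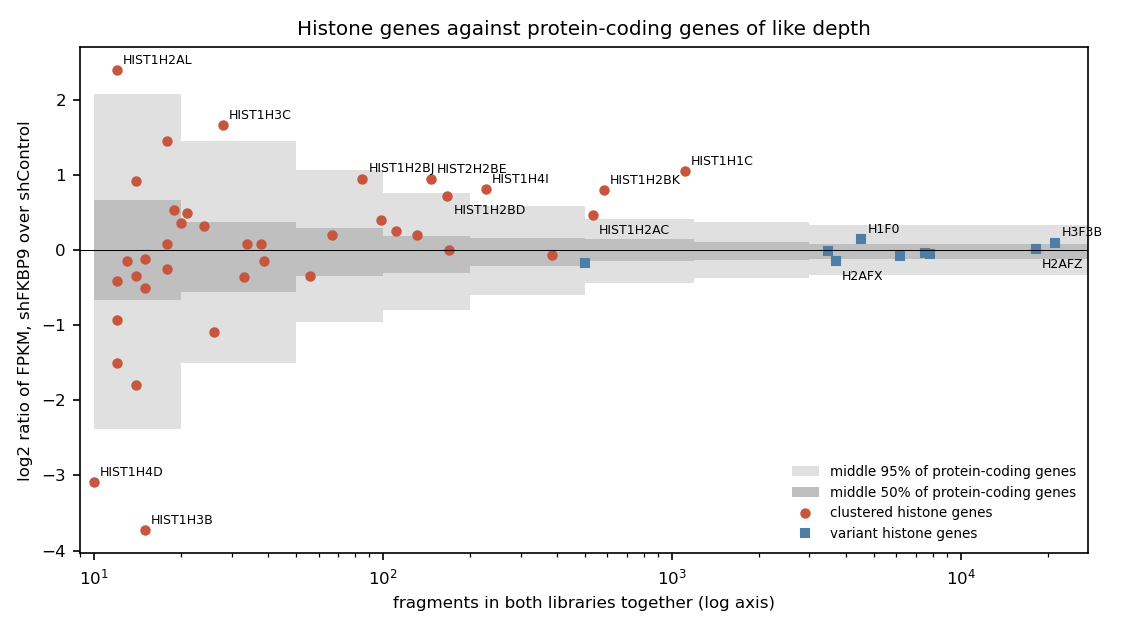
The log2 ratio of FPKM without addition (vertical axis) is plotted against the fragments in both libraries together (horizontal log axis) for the 48 histone genes with at least 10 fragments, 1 library per condition. Dark and light bands hold the middle 50% and 95% of protein-coding genes of like depth. Of the 14 clustered genes with at least 50 fragments, 5 lie above the light band and 0 below, as 2.5% of protein-coding genes do on each side by construction. Of the 25 clustered genes with 10 to 49 fragments, 2 lie above it and 2 below, while all 9 variant genes lie inside it.

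The linker histone HIST1H1C (ENSG00000187837, chromosome 6 of hg38 from 26055787 to 26056428) was the clustered gene with the most fragments. It encodes H1.2, a widely made somatic H1. It held 374 fragments in shControl and 736 in shFKBP9, or 32.2 and 66.8 FPKM, a log2 ratio of 1.05 (0.87 to 1.24). It was the only member with at least 50 fragments that was past 2-fold, and 99.9% of protein-coding genes with 500 to 1199 fragments had a lower ratio. Of the summed FPKM of the clustered genes it held 24.2% in shControl and 32.9% in shFKBP9.

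The other H1 genes of the clusters were scarce. HIST1H1B, which encodes H1.5, had 19 and 14 fragments (log2 ratio -0.34, -1.47 to 0.71), and HIST1H1E, which encodes H1.4, had 10 and 8 (-0.21, -1.79 to 1.25). HIST1H1D had 2 and 4, HIST1H1A had 1 in each library, and HIST1H1T, the linker histone of the testis, had none. The clustered H1 family summed to 406 and 763 fragments (log2 ratio 0.99, 0.81 to 1.16). Without HIST1H1C it summed to 32 and 27 (-0.17, -0.96 to 0.62), so HIST1H1C decided the sum of its family.

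Among the H2B genes HIST1H2BK (ENSG00000197903, chromosome 6 from 27146418 to 27146798) had the highest level, 31.9 FPKM in shControl from 220 fragments and 55.5 FPKM in shFKBP9 from 363. Its log2 ratio was 0.80 (0.55 to 1.05). HIST2H2BE, on chromosome 1, went from 52 to 95 fragments (1.31 and 2.52 FPKM, log2 ratio 0.90, 0.44 to 1.46). Both were higher in shFKBP9 by less than 2-fold.

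HIST1H2BD went from 65 to 102 fragments (4.12 and 6.82 FPKM, log2 ratio 0.71, 0.26 to 1.20), and HIST1H2BJ from 30 to 55 (1.74 and 3.37 FPKM, 0.91, 0.28 to 1.64). HIST1H2BH had 202 and 183 fragments, or 5.42 and 5.17 FPKM, a log2 ratio of -0.06 (-0.36 to 0.23). HIST1H2BC had 32 and 35 (0.20, -0.53 to 0.94). The increase was thus not shared by all abundant H2B genes. HIST1H2BI had 7 and 2 fragments (log2 ratio -1.46, -5.03 to 0.66), which is too few for its 2-fold difference to lie outside the counting interval. HIST1H2BA, the H2B of the testis, had none. The family of 18 genes summed to 688 and 911 fragments (log2 ratio 0.48, 0.34 to 0.63), and without HIST1H2BK to 468 and 548 (0.30, 0.12 to 0.49).

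The H2A genes of the clusters were led by HIST1H2AC (ENSG00000180573), with 231 fragments in shControl and 302 in shFKBP9, or 7.65 and 10.5 FPKM, a log2 ratio of 0.46 (0.21 to 0.72). HIST2H2AC had 63 and 69 (8.92 and 10.3 FPKM, 0.21, -0.31 to 0.72), HIST1H2AG had 44 and 55 (1.08 and 1.42 FPKM, 0.37, with an interval that included 0) and HIST3H2A had 87 and 83 (5.37 and 5.40 FPKM, 0.01, -0.44 to 0.46). All 8 clustered H2A genes with at least 10 fragments had a log2 ratio above 0, where 46.8% of protein-coding genes of that depth did, but the interval of 6 of them included 0. HIST1H2AL had 2 and 10 fragments (log2 ratio 2.05, 0.17 to 5.63) and lies within the span of HIST1H2BN on the same strand. HIST1H2AI had 5 and 13 (1.31), with an interval that included 0. HIST1H2AA, the H2A of the testis, had none. The family summed to 469 and 571 fragments (0.36, 0.18 to 0.54).

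The H3 genes of the clusters were the scarcest core histone family, with 100 and 86 fragments over 15 genes (log2 ratio -0.14, -0.57 to 0.29). In summed FPKM the direction turned, from 6.57 to 7.36. HIST1H3E had the most, 32 and 24 (0.66 and 0.52 FPKM, -0.29, -1.17 to 0.47). The H3 genes past 2-fold with at least 1 FPKM in either library went in opposite directions. HIST1H3C had 7 and 21 (log2 ratio 1.56, 0.37 to 3.14) and HIST1H3B had 14 and 1 (-3.04, -9.13 to -1.01). Both genes encode a replication-dependent H3 and have a model of 411 bases. Without them the family summed to 79 and 64 fragments (-0.23, -0.73 to 0.27) but to 3.75 and 4.25 FPKM. Of 7 clustered H3 genes with at least 10 fragments, 6 had a log2 ratio below 0, where 53.2% of protein-coding genes of that depth did.

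The H4 gene with the most fragments was HIST1H4I (ENSG00000276180). It had 85 fragments in shControl and 142 in shFKBP9, or 3.63 and 6.39 FPKM, a log2 ratio of 0.80 (0.42 to 1.22). HIST4H4, on chromosome 12, had 52 and 59 (1.11 and 1.33 FPKM, 0.24, -0.30 to 0.83), and HIST1H4H had 21 and 18 (0.54 and 0.48 FPKM, -0.12, -1.14 to 0.83). The lower H4 genes had few fragments: HIST1H4D had 9 and 1 (log2 ratio -2.56, -8.55 to -0.24) and HIST1H4C had 9 and 3 (-1.31, -4.03 to 0.49). HIST1H4A had 6 and 0. The family summed to 211 and 244 fragments (0.29, 0.01 to 0.56), but in summed FPKM the direction turned, from 11.8 to 11.4. Without HIST1H4I it summed to 126 and 102 fragments (-0.23, -0.62 to 0.16).

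HIST1H1C and HIST1H2BK thus carried most of the clustered difference. With shControl scaled to the depth of shFKBP9, HIST1H1C alone made up 47.8% and HIST1H2BK 19.3% of the fragments gained by the clustered genes, and the pair 67.1%. Without HIST1H1C the clustered sum was 1500 and 1839 (log2 ratio 0.37, 0.27 to 0.47), and without both it was 1280 and 1476 (0.28, 0.17 to 0.39). These genes lie in the HIST1 cluster of chromosome 6, whose 55 genes summed to 1590 and 2231 fragments (0.57, 0.47 to 0.66). The 12 genes of HIST2 on chromosome 1 summed to 133 and 188 (0.58, 0.25 to 0.91), and the 3 of HIST3 to 99 and 97 (0.05, -0.37 to 0.47).

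**Figure D2:**
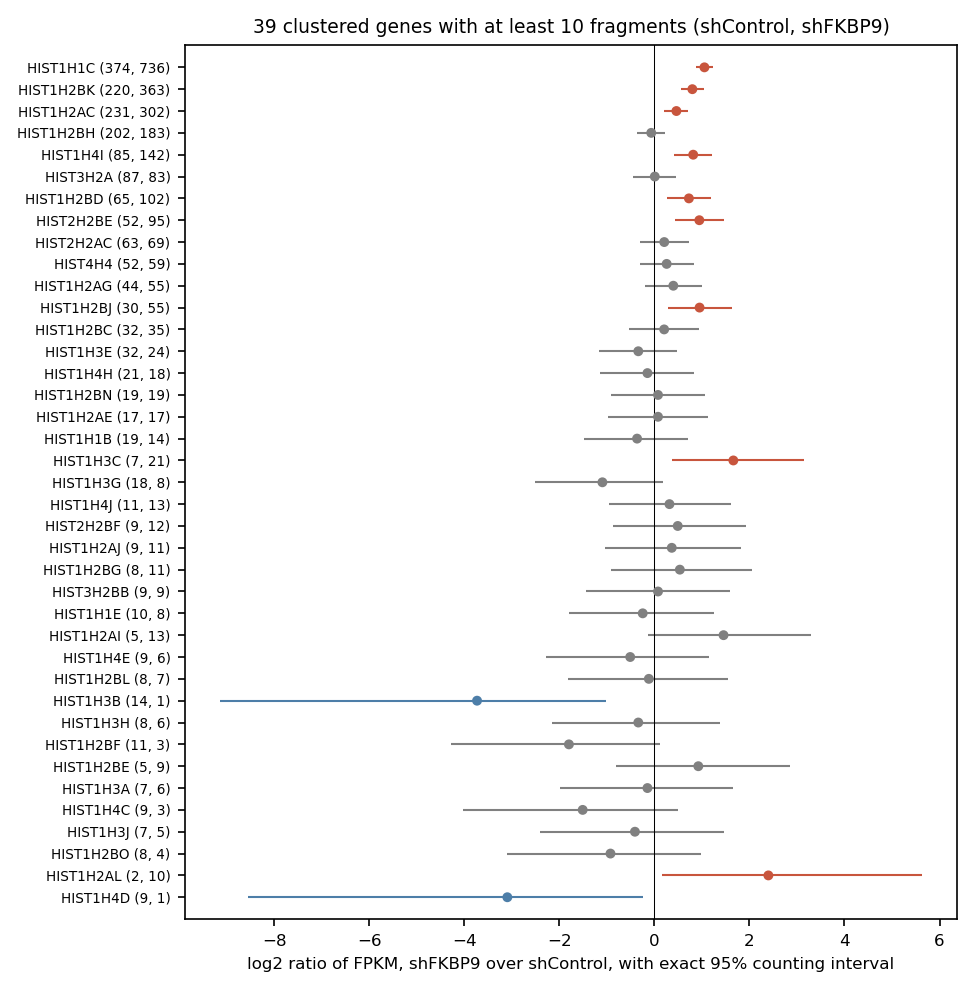
The 39 clustered genes with at least 10 fragments are ordered by fragments, with the log2 ratio of FPKM without addition (points) and its exact 95% counting interval (lines), and fragments in shControl and shFKBP9 beside each name. Intervals above 0 are red (9 genes), below 0 blue (2 genes, HIST1H3B and HIST1H4D) and the others grey.

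Clustered H2A and H2B genes often lie head to head and share the stretch between them. Of 12 pairs of clustered genes that start within 1000 bases of each other on opposite strands, 11 joined an H2A to an H2B gene. In FPKM, partners could differ in level. HIST1H2BK, at 31.9 and 55.5 FPKM, begins 330 bases from HIST1H2AH, at 0.714 and 0.301. HIST2H2BE, at 1.31 and 2.52 FPKM, begins 322 bases from HIST2H2AC, at 8.92 and 10.3. In fragments this pair was closer, with 52 and 95 on HIST2H2BE and 63 and 69 on HIST2H2AC. Their models are 2194 and 390 bases long, and FPKM divides by that length. Whether partners differ in ratio was not tested.

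The variant genes were read at a high level in both libraries. H2AFZ (ENSG00000164032), which encodes H2A.Z, a variant found beside the start sites of active genes, was the highest, with 223 FPKM in shControl and 225 in shFKBP9 (9298 and 8881 fragments, log2 ratio 0.01, -0.03 to 0.05). H2AFV, the other H2A.Z gene, had 47.7 and 45.9 FPKM (-0.05, -0.12 to 0.01). For both H2A.Z genes the interval included 0, and its bounds were within 0.12 of 0.

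H3F3B and H3F3A encode the same protein, H3.3, which is placed on DNA independently of its copying. H3F3B had 94.8 and 102 FPKM (10529 and 10710 fragments, log2 ratio 0.10, 0.06 to 0.14) and H3F3A had 56.9 and 54.2 (-0.07, -0.14 to 0.00). Together they summed to 13773 and 13636 fragments (0.06, 0.03 to 0.10). The linker variant H1F0, which encodes H1.0 and is known to build up in cells that no longer divide, had 52.1 and 57.6 FPKM (0.15, 0.06 to 0.23). The other linker variant, H1FX, had 65.4 and 65.1 FPKM (-0.01, -0.10 to 0.09).

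H2AFX, which encodes H2AX, the histone phosphorylated beside DNA breaks, had 68.1 and 61.4 FPKM (1990 and 1702 fragments, log2 ratio -0.15, -0.24 to -0.05). It was the only variant gene with the stem-loop and the only one with its interval below 0. H2AFY, which encodes macroH2A1, a variant of silent chromatin, had 12.2 and 11.8 FPKM (-0.04, -0.11 to 0.03), and H2AFJ had 4.48 and 3.97 (-0.17, -0.43 to 0.09). The 9 variant genes with at least 1 FPKM spanned log2 ratios from -0.17 to 0.15, and 6 of their 9 intervals included 0. Of the others 2 lay above 0 and 1 below, beside 24.4% and 30.7% of protein-coding genes with 1200 or more fragments, as all but H2AFJ had. At their depth an interval is narrow: all 9 lay within the middle 95% of protein-coding genes of like depth. The remaining variant genes had next to no fragments: H2AFB1 had 1 and 2, 1 of the 2 genes called H2BFS had 1 in each library, H3F3C had 0 and 1, and 8 had none.

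**Figure D3:**
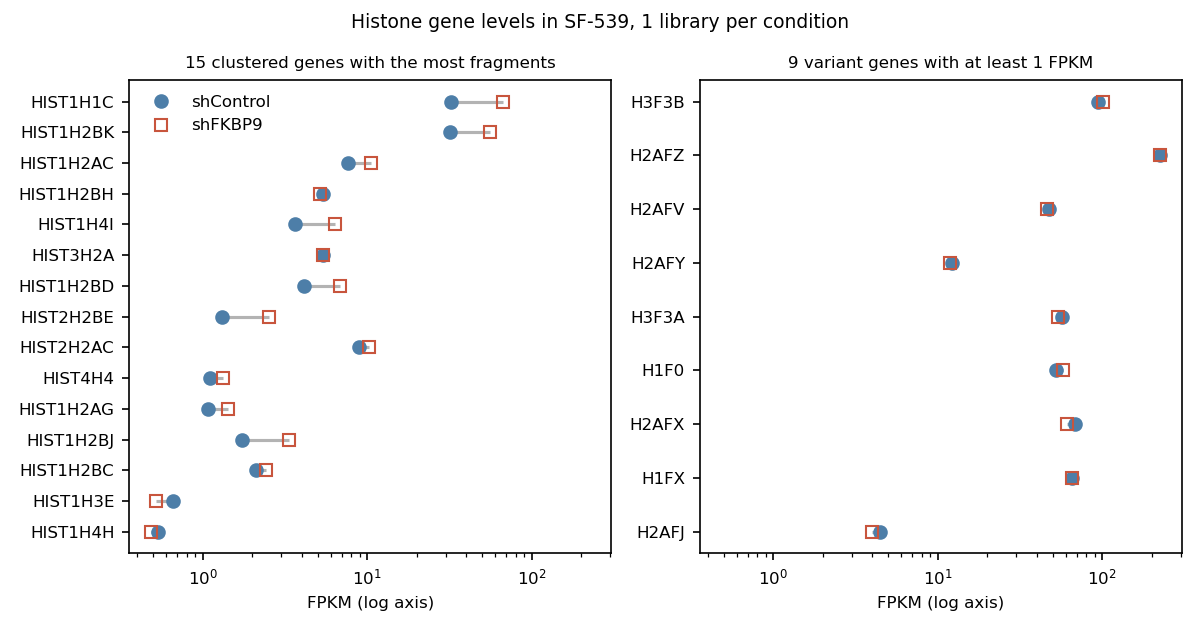
FPKM (log axis) in shControl (filled circles) and shFKBP9 (open squares), 1 library each, for the 15 clustered genes with the most fragments and the 9 variant genes with at least 1 FPKM, each panel ordered by fragments. HIST1H1C and HIST1H2BK stand apart from the other clustered genes at 32.2 and 31.9 FPKM in shControl, within the range of the variant genes, whose symbols nearly coincide.

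Near-identical copies limit what the count of a single gene means, since reads that match several genes equally well can be left out or assigned to one of them, and which was done is not given in the sources used here. HIST2H2AA3 had 0 and 3 fragments, HIST2H2AA4 had 1 in each library, and 100% and 99.8% of their windows of 100 bases recur in another gene. Windows were taken from the canonical GENCODE transcript of each gene, not from the model on which fragments were counted. HIST2H3A and HIST2H3C had none, HIST2H3D had 1 and 6, HIST2H4A had none and HIST2H4B had 4 and 0. For the 13 clustered genes with over 50% of windows shared, 6 had no fragment, and their sum was 30 and 43 (0.60, -0.11 to 1.32). No window of HIST1H1C, HIST1H2AC, HIST1H2BD or HIST1H4I recurs in another gene. Of those of HIST1H2BK, 22.5% do, in the pair of genes called H2BFS in the table. For some genes the windows cover only part of the counted model. HIST1H2AC had 420 windows for a model of 1668 bases, and HIST1H4I had 298 for 1294. The rest of such models was not checked. Among the variant genes, 64.3% of the windows of H3F3A recur in other genes, most of them pseudogenes, and the pseudogene H3F3AP4 held 437 and 413 fragments, so the value of H3F3A is uncertain. The 49 clustered genes with no shared window in the GENCODE transcript summed to 1466 and 1950 (0.49, 0.39 to 0.59). Rows with histone names that are not protein-coding, most of them pseudogenes, had 737 and 662 fragments over 35 rows (-0.08, -0.23 to 0.08).

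Where the gene models of the table end affects which transcripts are counted. For 35 clustered genes the model ended at the stop codon, before the stem-loop, and these summed to 772 and 1269 fragments (0.79, 0.66 to 0.92), of which HIST1H1C and HIST1H2BK held 594 and 1099. Without that pair they summed to 178 and 170 (0.01, -0.30 to 0.32). In 25 genes the model ran more than 200 bases past the stop codon, as for HIST1H2AC and HIST2H2BE, and these summed to 1033 and 1236 (0.34, 0.22 to 0.46). A polyadenylation hexamer, AATAAA or ATTAAA, stood within 200 bases of the stop codon in 9 clustered genes. Among them were HIST1H1C and HIST1H2BD, both higher in shFKBP9, and HIST1H4D, which was lower, at 9 and 1 fragments. HIST1H2BK, HIST1H2AC, HIST2H2BE and HIST1H4I had no hexamer within that distance. How often it stands there in other genes was not counted, and its part in the difference was not tested.

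Selection for poly(A) RNA is not given in the sources used here, and it decides how well mRNAs that end in a stem-loop are seen. Other RNAs without a long poly(A) tail, or with a short one, were looked at beside the clustered genes. RN7SK, RPPH1 and RN7SL1 were listed at 0 in both libraries. Mitochondrial ribosomal RNA had 20287 and 25321 fragments (log2 ratio 0.40, 0.37 to 0.42) and RN7SL2, the RNA of the signal recognition particle, had 4093 and 5211 (0.43, 0.37 to 0.48), both in the direction of the clustered sum. Small nuclear RNAs had 433 and 438 (0.09, -0.10 to 0.29) and small nucleolar RNAs 535 and 498 (-0.03, -0.21 to 0.15). The part of RNA selection in the clustered difference was not tested.

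The promoters of the clustered genes share short motifs that the naming rule did not use. In RefSeq promoters of GRCh38.p14, which run from 250 bases before to 50 bases after a gene's start, 66 clustered and 16 variant genes were matched. The CCAAT box (CCAAT, either strand, as for all motifs here) was found in all 6 H1, 16 H2A, 18 H2B and 13 H3 promoters of the clusters but in 3 of 13 of H4 (23.1%), which makes 84.8% of clustered promoters, beside 81.2% of variant promoters and 34.6% of all 35116. The octamer ATTTGCAT, known from H2B promoters, was found in 77.8% of clustered H2B and 68.8% of clustered H2A promoters, beside 1.77% of all. The AC box AAACACA, known from H1 promoters, was found in all 6 clustered H1 promoters, beside 5.64% of all. The TATA box TATAAA was found in 66.7% of clustered and 25% of variant promoters, beside 11.5% of all. Because head-to-head pairs lie close, the windows of some H2A and H2B genes overlap.

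The promoters of the 3 clustered genes with at least 200 fragments and the highest ratios, and of H2AFZ, the variant gene with the highest level, are shown with these motifs in capitals, motifs that overlap being joined.
HIST1H1C, chr6:26056421-26056720, minus strand: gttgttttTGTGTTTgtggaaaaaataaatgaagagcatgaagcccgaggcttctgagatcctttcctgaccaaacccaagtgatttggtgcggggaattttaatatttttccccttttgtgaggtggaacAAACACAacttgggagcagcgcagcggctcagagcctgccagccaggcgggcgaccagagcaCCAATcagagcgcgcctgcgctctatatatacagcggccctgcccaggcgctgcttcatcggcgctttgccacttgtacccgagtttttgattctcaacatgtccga
HIST1H2BK, chr6:27146809-27147108, minus strand: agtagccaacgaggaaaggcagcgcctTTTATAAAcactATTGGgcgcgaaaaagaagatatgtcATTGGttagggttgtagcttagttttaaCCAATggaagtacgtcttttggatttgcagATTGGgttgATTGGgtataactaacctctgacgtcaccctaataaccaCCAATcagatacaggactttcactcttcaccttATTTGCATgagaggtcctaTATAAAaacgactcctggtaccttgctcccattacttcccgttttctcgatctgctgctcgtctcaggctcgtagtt
HIST1H4I, chr6:27139032-27139331, plus strand: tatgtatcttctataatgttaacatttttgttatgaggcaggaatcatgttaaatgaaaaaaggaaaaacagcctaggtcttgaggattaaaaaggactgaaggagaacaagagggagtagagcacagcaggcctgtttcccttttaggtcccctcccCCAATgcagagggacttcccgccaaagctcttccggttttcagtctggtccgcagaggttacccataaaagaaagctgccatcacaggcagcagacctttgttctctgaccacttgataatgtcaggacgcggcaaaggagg
H2AFZ, chr4:99950226-99950525, minus strand: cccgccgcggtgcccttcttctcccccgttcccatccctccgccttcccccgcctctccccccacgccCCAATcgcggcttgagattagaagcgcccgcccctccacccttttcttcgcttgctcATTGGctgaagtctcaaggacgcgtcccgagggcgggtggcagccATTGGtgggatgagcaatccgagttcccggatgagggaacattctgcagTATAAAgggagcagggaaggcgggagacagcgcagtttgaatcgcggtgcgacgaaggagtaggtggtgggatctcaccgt
HIST1H1C holds the AC box on both strands and the CCAAT box, and HIST1H2BK holds the octamer beside several CCAAT boxes and TATA boxes. HIST1H4I holds the CCAAT box alone, and H2AFZ holds CCAAT boxes and a TATA box. These matches are a description, and no binding was measured.

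The genes that switch on clustered histone genes and cut their mRNAs lay on both sides of 0. Of 33 names listed for transcription and 3′ end processing, 31 were found and none was past 2-fold. In these 31 the interval lay above 0 for 5 and below 0 for 8, beside 20% above and 24.3% below among protein-coding genes with 200 or more fragments, as all 31 had. The median log2 ratio was 0.00. SLBP, which binds the stem-loop, had 1582 and 1600 fragments (0.09, -0.01 to 0.19). NPAT, the factor that cyclin E and CDK2 act on to start histone transcription, had 132 and 122 (-0.03, -0.40 to 0.33).

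CCNE2, a cyclin E, had 117 and 188 fragments (0.72, 0.42 to 1.11), while CCNE1, the other cyclin E, had 328 and 318 (0.03, -0.20 to 0.26). CDK2 had 1243 and 1025 (-0.20, -0.32 to -0.08). LSM11, a part of the U7 particle that guides the cut, had 218 and 162 (-0.33, -0.65 to -0.05), and ERI1, an exonuclease that trims the stem-loop end, had 442 and 548 (0.38, 0.20 to 0.57). POU2F1, which binds the octamer, had 501 and 496 (0.06, -0.12 to 0.24). CCNE2 had the highest ratio of the list, and YY1, a zinc finger transcription factor, the lowest, with 3983 and 2691 fragments (-0.49, -0.56 to -0.42). Of the cleavage and polyadenylation factors, CPSF1 had 2746 and 2205 (-0.24), CPSF4 had 874 and 676 (-0.29) and SYMPK had 2373 and 1968 (-0.19), with intervals below 0, and CPSF2 had 1501 and 1659 (0.22), with an interval above 0. WDR33 had 1360 and 1165 (-0.14), with an interval below 0. The intervals of CPSF3, CSTF2, CSTF2T, CSTF3 and FIP1L1 included 0.

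Of 30 genes listed as histone chaperones and deposition factors, 1 of which, CENPA, is itself a histone, none was past 2-fold and the median log2 ratio was -0.03. The interval lay above 0 for 8 and below 0 for 10 of the 29 with at least 10 fragments, all of which had 200 or more, the depth at which the shares were 20% and 24.3%. ANP32E, which removes H2A.Z, had 2054 and 2569 fragments (0.40, 0.32 to 0.48). SRCAP, which puts H2A.Z in place, had 277 and 200 (-0.36, -0.66 to -0.13). HIRA, which places H3.3, had 206 and 239 (0.28, 0.02 to 0.57), while its partners CABIN1 and UBN1 had 2765 and 2219 (-0.24, -0.32 to -0.16) and 1321 and 1111 (-0.17, -0.29 to -0.06). DAXX and ATRX, which place H3.3 elsewhere, had log2 ratios of -0.09 and -0.06, with intervals that included 0. CHAF1B, of the complex that places newly made H3 and H4 in S phase, had 711 and 562 (-0.26, -0.42 to -0.10). CENPA, the H3 variant of centromeres, which the naming rule leaves out, had 727 and 681 (-0.02, -0.17 to 0.14).

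A list of genes used in copying DNA in S phase had a median log2 ratio of 0.01, with none of 15 genes past 2-fold, 2 intervals above 0 and 5 below. All 15 had 1200 or more fragments, and of protein-coding genes of that depth 24.4% had an interval above 0 and 30.7% below. RRM2, a subunit of ribonucleotide reductase, had the highest ratio, with 2564 and 3125 fragments (0.36, 0.29 to 0.44). PCNA had 2143 in each library (0.08, -0.01 to 0.16), and MCM5, of the replicative helicase, had 4721 and 3975 (-0.17, -0.23 to -0.11).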

How the data were processed

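RNA-Seq libraries of SF-539 shControl and shFKBP9 cells, 1 each, were made with the NEBNext Ultra kit. According to the submitters' processing notes and the methods, the authors aligned reads to hg38 with HISAT2 2.0.5, counted them with featureCounts 1.5.0-p3, used edgeR for differential expression and deposited FPKM. Strandedness and the handling of reads with several matches are not given in the sources used here. Fragments were recovered as FPKM times gene length over the smallest such product (100% whole multiples, tolerance 0.001); 1 fragment on 1 kilobase is 0.0552 FPKM in shControl and 0.0582 in shFKBP9. Ratios, intervals and the alternatives were computed in Python 3.11.15 (scipy 1.17.1), and fragment recovery, intervals and the 2-fold count were tested on simulated data. Stem-loops and shared windows used GENCODE 44, where 85 members were matched by gene ID and 5 by the position of the stop codon. The members and lists were chosen with earlier results of these data known. Named are FKBP9, variant genes with a fragment, the 15 clustered genes with the most fragments, members past 2-fold, copies, and listed genes needed for their role; testis genes and others with few fragments were added after values were seen.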

Additional observations from a re-analysis of the deposited data

How the results depend on the processing

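The limits are those of 1 library per condition: counting error is the only error that could be given, and all but 1 of the genes past 2-fold rested on under 50 fragments. The 4 histone genes more than 2-fold higher became 2 with 1 added to FPKM in place of 0.1, 8 with no minimum and 1 with a minimum of 1 FPKM in both libraries. The 5 lower became 3, 9 and 0 under these settings, and 3 with at least 10 fragments required. With 0.01 added, shFKBP9 divided by the median ratio of expressed genes, TPM, or near-identical copies summed, both counts stayed at 4 and 5. The clustered median of 0.27 lay between 0.05, with no minimum, and 0.34, with 1 FPKM in both libraries, and its 95% binomial interval, -0.06 to 0.80, is too wide to show stability. The variant median of -0.04 lay between -0.06 and 0.00. The summed clustered log2 ratio of 0.54 was 0.37 without HIST1H1C, the gene with the most fragments. Settings chosen after seeing the data gave 0.28 without HIST1H1C and HIST1H2BK, and 0.61 in summed FPKM. They also gave -0.088 over genes under 50 fragments alone, where the direction turned. Over genes with no shared window in the GENCODE transcript, likewise chosen, the clustered log2 ratio was 0.49. The summed variant log2 ratio of 0.02 was -0.019 without H3F3B and -0.00 in TPM. With 1 added, FKBP9 stood at -3.16.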
